A study of Mus musculus with 2 samples.

Results

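Mir139 is a microRNA gene in an intron of Pde2a, and it is 1 of the 2202 microRNA genes counted in adrenal gland tissue of C57BL/6J mice. It was found as the row whose Ensembl identifier, ENSMUSG00000065446.1, carries the name Mir139 in the GENCODE M21 annotation. The study holds 2 microRNA-seq libraries of wild-type adrenal gland in 1 group, labelled biological replicates 2 and 1, with a size range below 30 per the labels. There is no treatment, mutant or second tissue, so the comparisons here set Mir139 beside other genes and replicate 2 beside replicate 1. Each library comes from a tissue sample of its own, while both carry a single donor identifier. Separate animals are not named, so spreads between the libraries may be technical. The sex is female in the description of both libraries and not collected in another label, and the age is unknown. The gene was chosen by its measured level (counts per 1000000, CPM), with its small difference between the libraries also known, so these values are a description and carry no test.

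A microRNA is cut from a hairpin in a longer transcript, and 1 arm of the hairpin is then loaded into an Argonaute protein. There it pairs with messenger RNAs, mainly through the seed (bases 2 to 8), and lowers their output. A microRNA in an intron on the strand of its host can be cut from the transcript of the host, and Mir139 has such a position. Its host Pde2a encodes a phosphodiesterase that breaks down cyclic AMP and cyclic GMP and is itself stimulated by cyclic GMP. In cattle this enzyme is abundant in the zona glomerulosa, the aldosterone-making layer of the adrenal cortex. In human cells miR-139-5p is known to repress ROCK2 and IGF1R.

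The hairpin and both mature arms are shown because the counts are for the whole hairpin and do not tell the arms apart. The sequences are from RefSeq (GRCm38.p6, which is mm10). The hairpin lies on the plus strand at chr7:101475376-101475443, with both mature arms in capitals. The miR-139-5p arm lies at chr7:101475382-101475403 and the miR-139-3p arm at chr7:101475418-101475439, with the seed of each in capitals.
Mir139 hairpin: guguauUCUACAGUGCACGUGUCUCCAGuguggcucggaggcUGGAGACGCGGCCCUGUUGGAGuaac
mmu-miR-139-5p: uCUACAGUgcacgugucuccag
mmu-miR-139-3p: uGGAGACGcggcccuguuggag

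The hairpin is 68 nt long and each arm 22 nt, with 14 nt between the arms. The longest run of perfect Watson-Crick pairing between the arms is 7 nt, over bases 15 to 21 of the 5p arm. The GC content is 54.5% for the 5p arm and 68.2% for the 3p arm, against a median of 52.2% (quartiles 44.0% and 59.1%) over 1738 RefSeq mature entries. The 3p arm thus lies above the upper quartile and the 5p arm inside the quartiles.

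Neither seed of Mir139 was found in another mouse gene of that table, which does not list every mouse microRNA. Some genes have a single arm in it, such as the 5p arm of Mir23b, so shared seeds can be missed. A seed carried by 1 gene is common there, at 1182 of 1398 distinct seeds. The contrast is with let-7, whose genes Mirlet7b, Mirlet7d and Mirlet7i had levels near that of Mir139 and share a single 5p seed. The same seed is carried by 13 genes of the table. Another gene of like level, Mir10a, shares its 5p seed with Mir10b. These 4 sequences are shown for comparison with miR-139-5p, with seeds in capitals.
mmu-let-7b-5p: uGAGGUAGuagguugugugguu
mmu-let-7d-5p: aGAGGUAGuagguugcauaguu
mmu-let-7i-5p: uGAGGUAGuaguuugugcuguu
mmu-miR-10a-5p: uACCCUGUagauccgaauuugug

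These lie at chr15:85707325-85707346 (plus), chr13:48536078-48536099 (minus), chr10:122985698-122985719 (minus) and chr11:96317186-96317208 (plus). The longest run that miR-139-5p has in common with any of 1736 other mature entries is 9 nt, found in miR-17-5p and miR-770-5p. For miR-139-3p it is 8 nt. Over the annotated GENCODE M21 transcripts of other genes, the longest shared run is 14 nt for the 5p arm, in Tgm2, and 15 nt for the 3p arm, in Lemd2, Nf1 and Pdcd7. On the opposite strand it is 14 nt and 16 nt. No annotated transcript of another gene therefore holds either full arm. Introns and intergenic sequence were not searched. The point matters because reads that align to several places (36.0% of all reads in replicate 2 and 35.9% in replicate 1) are left out of the gene counts.

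Pde2a lies on chromosome 7 at chr7:101421691-101512827 on the plus strand, the strand of Mir139, and spans 91137 bp. GENCODE M21 gives it 12 transcripts, of which 10 span Mir139, and all 10 have it in an intron. The intron is numbered 1, 2 or 3 depending on the transcript. In the longest form it runs over 29902 bp (chr7:101451469-101481370). In transcripts with an additional exon nearer to Mir139 on the upstream side it runs over 19829 bp (chr7:101461542-101481370). In 1 transcript, which starts 23248 bp upstream of Mir139, it is 28937 bp. The downstream exon is the same in all of them and begins 5928 bp after the hairpin. RefSeq gives Pde2a 5 start sites, and all lie upstream of Mir139, at distances from 19314 to 53685 bp. A second annotated gene, Gm45837, overlaps Pde2a on the same strand and holds Mir139 in its intron 3, so by position the hairpin cannot be assigned to a single host transcript. These libraries hold no Pde2a mRNA counts, so the host's own level is not analysed here.

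**Figure D1:**
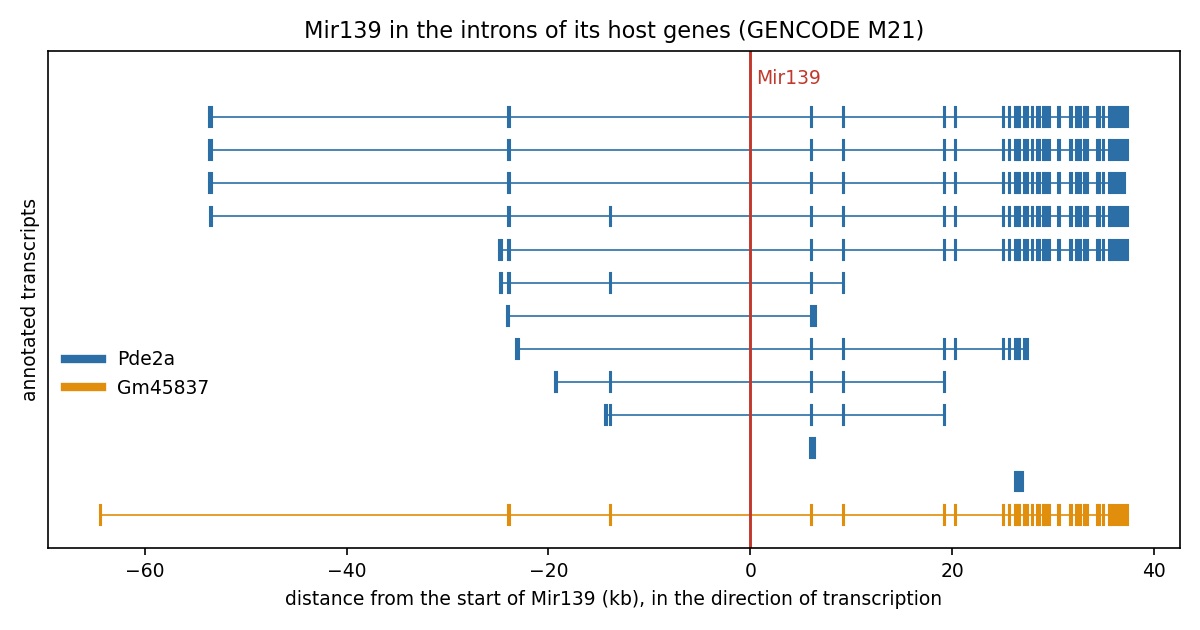
Annotated transcripts of Pde2a (blue) and Gm45837 (orange), with exons as boxes, plotted by distance in kb from the start of Mir139 (red line). No exon touches the line, and 10 of 12 Pde2a transcripts cross it.

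Mir139 has no close neighbour among microRNA genes. The nearest annotated microRNA gene, Gm22655 in an intron of Anapc15, lies 405741 bp downstream and had no count in either library. The nearest with counts, Mir3102, lies 592967 bp upstream on the other strand, with 3954 counts in replicate 2 and 4389 in replicate 1. Of 153 microRNA genes on chromosome 7, 24 reached 10 counts in each library. Mir139 made up 92.4% of the counts on that chromosome in replicate 2 and 94.2% in replicate 1. By mean CPM the next gene there was Mir1839, at 1385 CPM in replicate 2 and 501 CPM in replicate 1. Mir1839 lies in exons of other annotated entries on its strand, 2900076A07Rik and another entry also named Mir1839. In replicate 1 alone the next gene was Mir330, at 813 CPM.

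By counts that leave out reads aligning to several places, Mir139 was among the most abundant microRNA genes of the gland. Replicate 2 held 317605 reads on the strand of Mir139, of 6570375 counted on microRNA genes, and replicate 1 held 426970 of 9137907. Per 1000000 of these totals (CPM), that is 48339 CPM in replicate 2 (exact 95% interval 48175 to 48503) and 46725 CPM in replicate 1 (46588 to 46862). The mean was 47532 ± 1141 CPM (SD, n = 2), so the SD was 2.40% of the mean. The intervals cover counting error only, since reads without molecular identifiers are not independent molecules. The libraries lie close together, and their intervals do not overlap.

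As a share of counts, Mir139 took 4.83% in replicate 2 and 4.67% in replicate 1, or 4.75% ± 0.114 (SD, n = 2). Of all sequenced reads it took 2.20% in replicate 2 and 2.28% in replicate 1. The order of the libraries thus depends on the denominator: replicate 2 is higher as a share of microRNA counts and lower as a share of all reads. The denominators differ by the share of reads counted on microRNA genes, which was 45.4% in replicate 2 and 48.8% in replicate 1.

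No read was counted on the strand opposite to Mir139 in either library. A count of 0 allows up to 3 reads, which is 0.457 CPM in replicate 2 and 0.328 CPM in replicate 1, or at most 0.000945% (replicate 2) and 0.000703% (replicate 1) of the reads on the gene's own strand. Its counts were therefore the same in the column of reads on either strand. This is not so for Mir126a, the endothelial microRNA, which overlaps Mir126b on the other strand. The column held 11 counts for it in replicate 2 and 17 in replicate 1, against 356935 on its own strand in replicate 2 and 563601 in replicate 1.

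In the order of mean levels Mir139 ranked 7 of 2202 genes, at rank 7 in replicate 2 and rank 8 in replicate 1. This order, like the share of counts, leaves out reads that align to several places. How far that lowers genes that share a mature sequence, such as Mirlet7a-1 at a mean of 602 CPM, was not tested. The gene just above it was Mir375, a microRNA typical of pancreatic islet cells, at 48617 CPM in replicate 2 and 50274 CPM in replicate 1. Mir139 was lower than Mir375 in both libraries, at 0.994 times its level in replicate 2 and 0.929 times in replicate 1. Their means, 47532 ± 1141 and 49445 ± 1171 CPM (SD, n = 2 each), differ by more than either SD, but the gap in replicate 2 was small. Above Mir375 came Mir10a, a Hox-cluster microRNA, at 56465 CPM in replicate 2 and 53411 CPM in replicate 1, and its libraries do not overlap those of Mir139.

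Below it, Mirlet7d had 39823 CPM in replicate 2 and 46149 CPM in replicate 1. Mir139 was higher than Mirlet7d in both libraries, by 1.21-fold in replicate 2 and 1.01-fold in replicate 1. The mean of Mirlet7d was 42986 ± 4473 CPM, and its SD is about as large as the gap between the means. Mir23a followed with 28913 CPM in replicate 2 and 55297 CPM in replicate 1, which lie on either side of both Mir139 values. The order of Mir139 and Mir23a therefore turned round between the libraries, with Mir23a at rank 12 in replicate 2 and rank 5 in replicate 1. Mir23a was the only one of the 9 other genes of like level whose range overlapped that of Mir139.

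**Figure D2:**
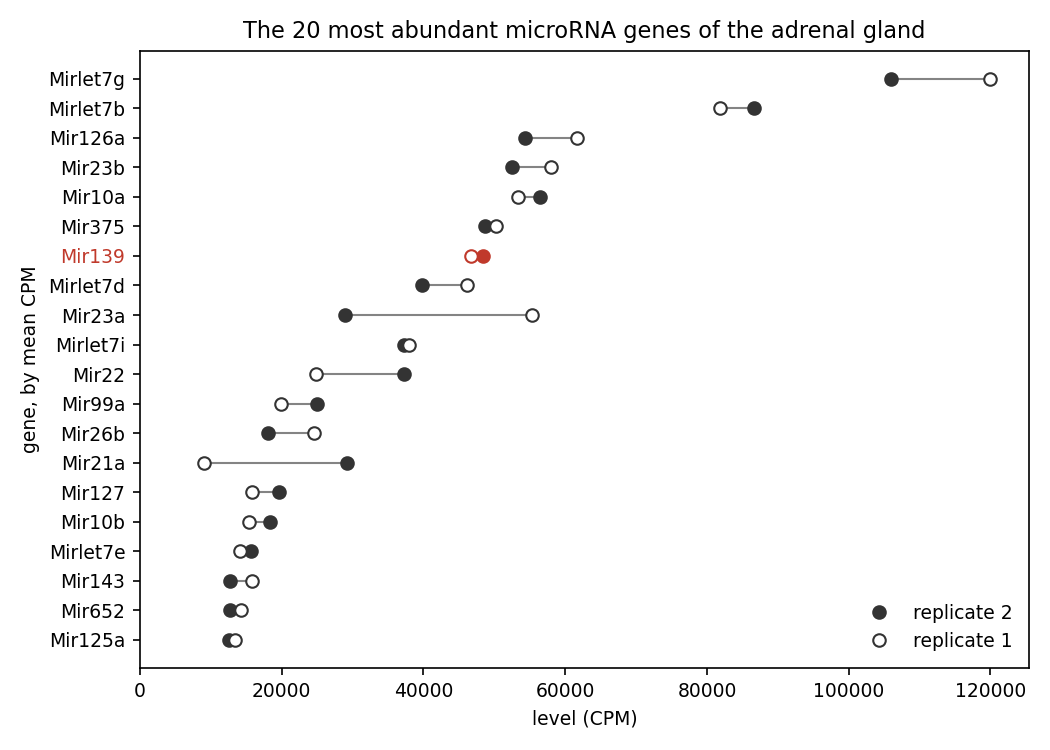
Level in CPM of the 20 most abundant microRNA genes, with replicate 2 as filled and replicate 1 as open circles. Mir139 (red) sits at 48339 CPM in replicate 2 and 46725 CPM in replicate 1 with a short gap, while Mir23a, Mir22 and Mir21a have long ones.

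Stability was read against genes of like level, meaning a mean CPM within 2-fold of Mir139 (23766 to 95064 CPM). This window holds 10 genes, Mir139 included, which together made up 49.0% of counts in replicate 2 and 51.6% in replicate 1. The lowest gene inside is Mir22 at 31062 CPM and the highest is Mirlet7b at 84252 CPM. Just outside lie Mir99a below, at 22390 CPM, and Mirlet7g above, at 112919 CPM. The other members are Mir126a, Mir23b, Mir10a, Mir375, Mirlet7d, Mir23a and Mirlet7i.

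Mir139 had a log2 ratio of 0.049 (replicate 2 over replicate 1, scaled by total counts, exact 95% counting interval 0.042 to 0.056), a 1.03-fold difference. There is 1 library on each side, so the ratio has no replicate check. Ordered from the smallest size of ratio, Mir139 ranked 3 of the 10 genes. The smaller ones were Mirlet7i, a let-7 gene, at -0.023 and Mir375 at -0.048. The median size over the 10 genes was 0.11 and the largest was 0.94, for Mir23a. Mir23a was the only gene of the 10 past 1.5-fold, where 27.9% of all tested genes were, and it was lower in replicate 2. Mir22 lay just short of that fold, at 1.497, with 37243 CPM in replicate 2 and 24881 CPM in replicate 1.

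Over all 426 genes with at least 20 counts in the libraries together, 119 differed by more than 1.5-fold, which is 27.9%. Of these, 66 were higher and 53 lower in replicate 2. Mir139 was not among them, and 39 of the 426 genes had a smaller ratio than it did. That count was 46 by TMM and 7 with the total taken without the 5 most abundant genes. By total counts, higher levels went with smaller ratios in part. The median size was 0.18 for 21 genes at 10000 CPM and more, and 0.22 for 54 genes from 1000 to 10000 CPM. It was 0.22 for 109 genes from 100 to 1000 CPM and 0.39 for 242 genes below 100 CPM. By TMM the medians in this order were 0.25, 0.23, 0.23 and 0.38, so the highest band was not the smallest. In the highest band 2 genes had a smaller ratio than Mir139 by total counts, the same Mirlet7i and Mir375. By TMM 3 genes of that band did.

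**Figure D3:**
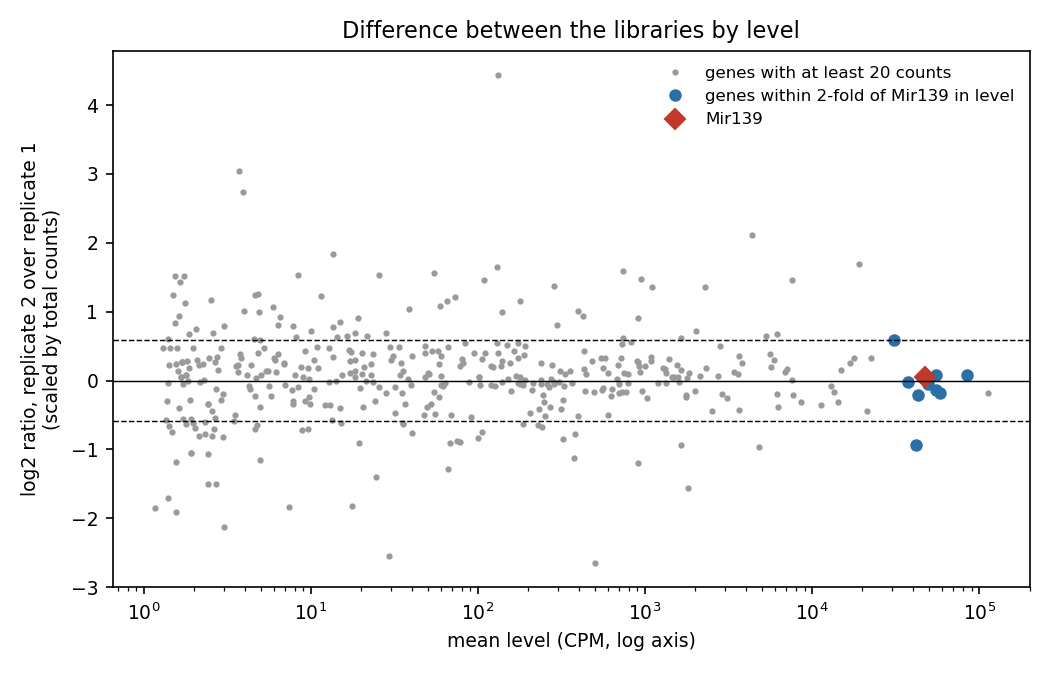
Log2 ratio of replicate 2 over replicate 1, scaled by total counts, against mean CPM on a log axis for 426 genes, with dashed lines at 1.5-fold. Mir139 (red) lies near 0 at 0.049, and the 9 other genes of like level (blue) spread from -0.94 to 0.58.

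The sign of the Mir139 ratio depended on the scaling. With TMM scaling, which sets library sizes from the bulk of genes, it was -0.054 (interval -0.061 to -0.047). With median-of-ratios size factors it was -0.040, and per all reads it was -0.052. With the total taken without the 5 most abundant genes it was 0.0061 (interval -0.00050 to 0.013). TMM shifted every gene by -0.10 relative to total counts, which is larger than the ratio itself. Relative to the median gene, a quantity that no scaling changes, Mir139 stood at -0.029. The counting interval is thus far narrower than the span between scalings. Under TMM Mir139 again ranked 3 of the 10, but behind Mirlet7b at -0.019 and Mir10a at -0.023, while Mir375 moved to -0.15 and Mirlet7i to -0.13. By TMM 120 of the 426 genes (28.2%) were past 1.5-fold, 54 higher and 66 lower in replicate 2.

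**Figure D4:**
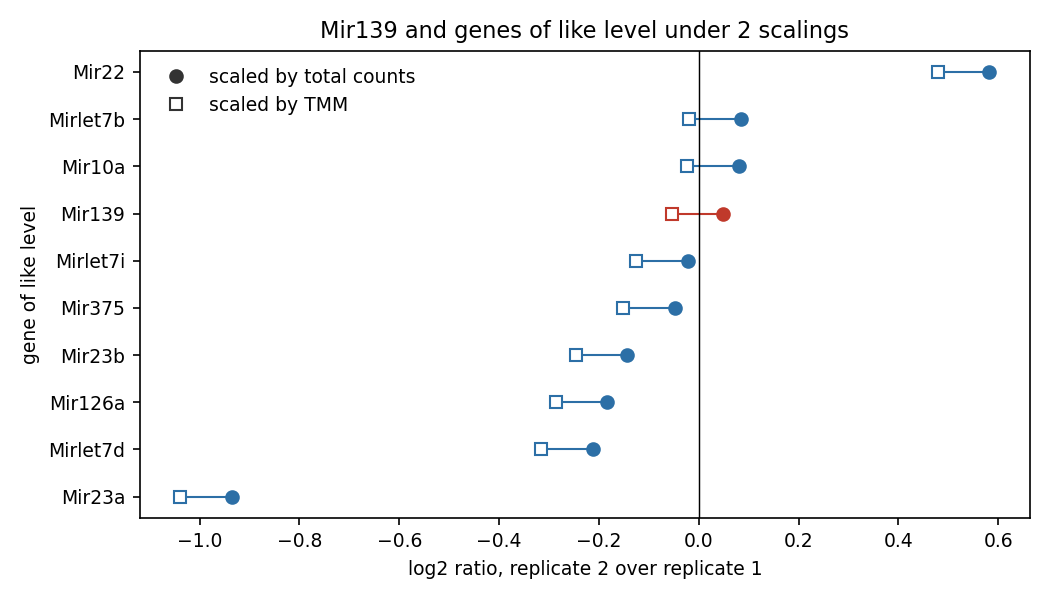
Log2 ratio of replicate 2 over replicate 1 for the 10 genes of like level, scaled by total counts (filled circles) and by TMM (open squares). Mir139 (red) stands at 0.049 by total counts and at -0.054 by TMM, on either side of 0, as do Mirlet7b and Mir10a.

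Set against each of the other 9 genes directly, with no scaling at all, the Mir139 log2 ratio was above 6 and below 3. It was nearest to Mir10a, which had a ratio of 0.080, then to Mirlet7b at 0.084, and then to Mirlet7i at -0.023. These distances are 0.031, 0.035 and 0.072 on the log2 scale and rest on 2 libraries each. The genes lie on chromosomes 11, 15 and 10, apart from Mir139. By the median distance to the other genes of like level, Mirlet7i came first at 0.12, Mir375 second at 0.13 and Mir139 next, level with Mir23b, at 0.19.

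By annotation, 710 of the 2202 microRNA genes lie in an intron of a protein-coding gene on the same strand, as Mir139 does, and 146 of the 710 reached 10 counts in each library. The median of those 146 was 34.4 CPM (quartiles 4.28 and 376), so Mir139 lay far above most of its class. It ranked 3 in the class, and made up 13.8% of the class's counts in replicate 2 and 12.4% in replicate 1. The genes above it were Mirlet7g in Wdr82, at 105944 CPM in replicate 2 and 119893 CPM in replicate 1, and Mir23b, at 52546 CPM in replicate 2 and 58044 CPM in replicate 1. Below it came Mir26b, in an intron of Ctdsp1, at 18029 CPM in replicate 2 and 24533 CPM in replicate 1. Mir10b, in introns of Hoxd3 and Hoxd4, followed at 18397 CPM in replicate 2 and 15439 CPM in replicate 1. Mir139 was above both of these in each library. Of these 5 leading genes Mir139 had the smallest ratio, at 0.049, against sizes from 0.14 for Mir23b to 0.44 for Mir26b.

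**Figure D5:**
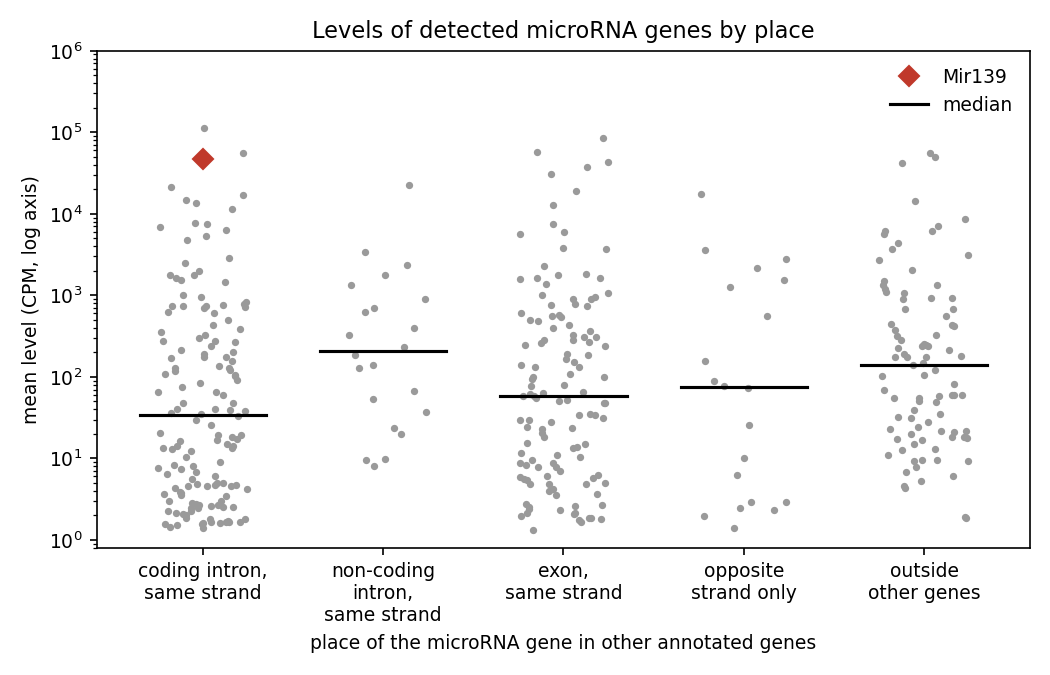
Mean CPM on a log axis of microRNA genes with at least 10 counts in both libraries, by their place in other annotated genes, with the median as a bar. Mir139 (red) lies at 47532 CPM in the coding-intron class, whose median is 34.4 CPM.

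The other microRNA genes inside phosphodiesterase genes had few or no counts. There were 5 of them, and none reached 10 counts in each library. Over all 2202 genes 403 did (18.3%), so a count of 0 of 5 is near the background. In introns of Pde4d, which encodes a phosphodiesterase specific for cyclic AMP, Mir582 had 1 count in replicate 2 and 7 in replicate 1, and Mir1904 had none. Mir7672, in an exon of Pde12, had 1 count in each library. Gm44413 in an intron of Pde1c, and Gm44337 on the strand opposite to Pde11a, had none. Whether these genes lose reads that align to several places was not tested.

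MicroRNAs typical of cell types in the gland give a scale for Mir139, whose own cell type cannot be read from bulk tissue: fewer cells of a type and less microRNA per cell cannot be told apart. The neuroendocrine pair Mir375 and Mir7b summed to 51451 CPM in replicate 2 and 53658 CPM in replicate 1, close to Mir139. Endothelial Mir126a had 54325 CPM in replicate 2 and 61677 CPM in replicate 1, and the mural pair Mir143 and Mir145a summed to 13885 CPM in replicate 2 and 16737 CPM in replicate 1. Mir139 was thus of the order of the leading neuroendocrine and endothelial microRNAs and 3.10 times the mural sum. The mural members went opposite ways between the libraries, with log2 ratios by total counts of -0.31 for Mir143 and 0.28 for Mir145a. The leukocyte microRNAs Mir142, Mir150 and Mir223 summed to 872 CPM in replicate 2 and 1010 CPM in replicate 1. These also split, at 0.42 for Mir150 against -0.84 for Mir142 and -0.63 for Mir223. Markers of neighbouring or unrelated organs were low: Mir122 of liver had 71.5 CPM in replicate 2 and 128 CPM in replicate 1, and Mir192 and Mir204 of kidney summed to 87.1 CPM in replicate 2 and 78.6 CPM in replicate 1. The kidney members split too, at -0.18 for Mir192 and 0.39 for Mir204. Of the 4 striated muscle microRNAs listed (Mir1b, Mir206, Mir208a and Mir208b), Mir208a and Mir208b were at 0. The sum of the 4 was 5.17 CPM in replicate 2 and 4.27 CPM in replicate 1, and other muscle microRNAs were not summed. Whether any of these markers lose reads that align to several places was not tested. The erythroid sum of Mir451a, Mir144 and Mir486 was 295 CPM in replicate 2 and 144 CPM in replicate 1. Its log2 ratio was 1.03, while that of Mir139 was 0.049. The members differed, at 1.16 for Mir451a, which held most of the sum, 0.91 for Mir486 and 0.23 for Mir144. The part of the erythroid difference in the Mir139 ratio was not tested.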

How the data were processed

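The authors' deposited tables hold raw read counts per microRNA gene, 1 table a library. The assembly is mm10 and the annotation GENCODE M21, per the text deposited beside them. Adapter trimming is named in the labels' protocols. Aligner and counter: not given in the sources used here. The 3 count columns have no header and were read, from their values, as either strand, the strand of the gene and the opposite strand. The first 4 rows name no gene and were left out of library sizes; unmapped, multiply aligned and unassigned reads made up the rest of 14457994 reads in replicate 2 and 18743064 in replicate 1. All 2202 identifiers matched GENCODE M21, and 1018 symbols matched the RefSeq mature table.

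CPM is counts per 1000000 of the total over genes. Ratios have 0.5 counts added to each library, with exact Clopper-Pearson intervals. TMM came from edgeR 4.0.16 (R 4.3.3), and the rest from Python 3.11.15, numpy 2.4.6, pandas 2.3.3 and scipy 1.17.1. No test was run: there is 1 group. Other scalings, the column of counts on either strand, other windows and filters, and single libraries were tried. The ratio calculation was tested on simulated data. Named genes are those of like level, neighbours in rank, coding-intron leaders, microRNAs in phosphodiesterase genes, the nearest on the chromosome, and cell-type markers. Mir139, these lists and the window were chosen with earlier results of these data known.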

Additional observations from a re-analysis of the deposited data

How the results depend on the processing

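Mir139 had a mean of 47532 CPM by total counts, 74899 per 1000000 of the total without the 5 most abundant genes and 52305 CPM in counts on either strand. The first total leaves genes out by construction, and the second lacks nearly all reads of Mir126a and also reads of other genes. TMM and median-of-ratios scaling left the mean within 1 SD, and single libraries gave 46725 to 48339 CPM. The share of 4.75% became 2.24% of all reads and 5.23% in counts on either strand, with 4.67% to 4.83% in single libraries. The rank of 7 became 6 in counts on either strand, where Mir126a loses its reads, and single libraries gave 7 to 8. The log2 ratio of 0.049 became -0.054 with TMM, -0.040 with median of ratios, 0.0061 without the 5 most abundant genes, -0.052 per all reads (chosen after seeing the data) and 0.035 in counts on either strand. The stability rank of 3 held for windows of 1.5-fold and 3-fold, the 20 most abundant genes, TMM and median of ratios, and also per all reads and by the median distance with no scaling, which were chosen after seeing the data. It became 1 without the 5 most abundant genes in the total and 1 in counts on either strand. Leaving out genes that share a mature sequence removed none of the genes of like level, so it could not change that rank. A window of 3-fold held 16 genes in place of 10. Genes past 1.5-fold numbered 119, against 389 of 818 with no filter on counts and 35 of 184 at a mean of at least 100 CPM. The ranking among coding-intron genes stayed at 3 in counts on either strand and in each library, and these were also chosen after seeing the data. No paired analysis was possible because there is 1 group. A ratio needs both libraries, so leaving one out gives none. Depth limits little for Mir139, whose counting intervals are narrow, but 2 libraries leave its spread poorly known.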
